A study of Mus musculus with 3 samples.

Results

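A faint class of cytosines in messenger RNA is described here: those that escaped bisulfite conversion in 5% to below 10% of their reads in mouse embryonic stem cells. A cytosine was deep if each of the 3 libraries covered it with at least 50 reads, and a deep cytosine was a member if its unconverted share over the reads of all 3 libraries lay in that range. Of 4450412 cytosines listed in any library, 441931 (9.93%) were deep, in 5763 transcripts of 5669 genes. The members were 2938 of these (0.665%), in 1629 transcripts of 1623 genes. Below the range lay 438877 deep cytosines, which serve as the comparison, and 116 lay at 10% or above.

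The cells were of the J1 line and lacked Tet1, Tet2 and Tet3 (Tet1-/-, Tet2-/-, Tet3-/-). They grew on a layer of mouse embryonic fibroblasts, which was depleted before RNA was taken, and polyadenylated RNA was fragmented, converted with bisulfite and sequenced. All 3 libraries are of this 1 group and no wild-type cells were analysed here, so every comparison is between cytosines. The labels do not say whether the libraries came from separate cultures, so the spread between them may be technical.

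Bisulfite deaminates cytosine to uracil, which is read as thymine, whereas 5-methylcytosine and 5-hydroxymethylcytosine resist it. Enzymes of the NSUN family place 5-methylcytosine in RNA, and the proteins ALYREF and YBX1 bind it. Tet enzymes, absent from these cells, oxidise 5-methylcytosine in DNA and have also been found to act on RNA. An unconverted read may therefore come from a modified cytosine or from an unmodified one that the reagent missed, and at the levels described here the reads do not tell these apart.

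The members' own letters could be read only near the 5′ end of an mRNA, where RefSeq promoter sequences of build GRCm38.p6 reach 50 bases past the transcript start. Of 34 members in the first 50 nt, 19 had letters. The 6 with the most reads are shown first, and then 3 more that share a short word with Ranbp1 and Kif22 and were picked after their letters had been read. The member is the capital letter, flanked by up to 10 bases, and the number after the gene is its position in the transcript, counted from 1 at the 5′ end.
Eef2 50 (chr10:81176670-81176680, plus strand): cgtcggcgcgC
Ranbp1 46 (chr16:18248645-18248659, minus strand): cggcgccagaCgcgg
Taf10 50 (chr7:105744289-105744299, minus strand): gcgcggacccC
Kif22 39 (chr7:127042372-127042392, minus strand): agggctaagaCgtgtccgcag
Lmnb2 37 (chr10:80918199-80918219, minus strand): aatgagcgcgCcgcattcggg
Tmem248 48 (chr5:130222372-130222384, plus strand): tcgcagcgcgCgg
Snx17 28 (chr5:31193321-31193341, plus strand): gctgcggagaCgcgctgagtg
Akap8l 31 (chr17:32350537-32350557, minus strand): tggcgtcagaCgcgcagagta
Sf3b6 39 (chr12:4817636-4817656, plus strand): taatttgagaCgcggactttc
In Ranbp1, Kif22, Snx17, Akap8l and Sf3b6 the member is the cytosine of the word AGACG. The base just 5′ of the 19 members was G in 10, A in 6 and C in 3, and T in none. Among all 2822 deep cytosines with letters it was G at 1358, C at 726, T at 463 and A at 275.

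The member of Eef2, which drives translocation of the ribosome, was unconverted in 6.06%, 7.14% and 5.51% of its 1155, 924 and 762 reads in replicates 1, 2 and 3. For Ranbp1, a cofactor of the nuclear transport GTPase Ran, the shares were 5.94%, 5.45% and 6.78% of 438, 404 and 369 reads. These were even across libraries, whereas Kif22, a mitotic kinesin, had 2.92%, 4.68% and 9.63% of 171, 171 and 135 reads. Snx17, an endosomal sorting protein, had 2.22%, 6.74% and 6.33%. Akap8l, a nuclear anchoring protein, had 4.60%, 6.02% and 5.95%, and Sf3b6, a subunit of the splicing factor SF3b, had 5.94%, 4.88% and 6.15%. The AGACG group was thus in the lower part of the range, at pooled shares of 5.04% to 6.03%.

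The word AGACG was searched on the transcript strand of the matched windows after these letters had been read, and it contains the shorter words GACG and ACG. It occurred in 4.34% of all windows of the same length on that strand, and in 8.29% on either strand. Of 16 deep cytosines in the word, 5 were members (31.2%), against 12 of 2668 elsewhere with enough flanking letters (0.450%). For GACG the count was 5 of 50, for ACG 6 of 92 and for GCG 3 of 550. The other 11 deep cytosines in AGACG, all below the range, were unconverted in 2.22% ± 0.420 of reads (SD, n = 3), and those outside it in 1.27% ± 0.0720, with the word higher in all 3 libraries. These are small counts from an early stretch of the mRNA and a word chosen on the same members, so no test was made.

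Most members sat at the lower edge of the range and were read less deeply than other deep cytosines. Their median pooled share was 5.68%. Below 6% lay 1826 members, 656 more lay below 7% and 287 more below 8%, which left 107 below 9% and 62 above that. Their median pooled coverage was 255 reads, against 319 for deep cytosines below the range. The library-wide unconverted share was 1.53%, 1.45% and 1.41% in replicates 1, 2 and 3, and the members' median was 5.95%, 5.88% and 5.80%, values that the choice itself fixes. Members held 0.417% of all reads at deep cytosines and 1.75% of the unconverted ones. Coverage summed over listed cytosines was 151362866, 142608298 and 139884444 in the 3 libraries.

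The edges of the class are arbitrary cuts through a continuous distribution. Within 0.1 percentage point of 5%, 258 deep cytosines lay just below and 316 just above. Position 566 of Rps4x, a protein of the small ribosomal subunit, fell just outside at 4.15%, 5.08% and 5.59%, and position 285 of Rpl13, of the large subunit, at 4.63%, 5.45% and 4.69%. Just inside were position 3084 of Eif3a, a subunit of the initiation factor eIF3, at 5.14%, 5.49% and 4.48%, and position 841 of the splicing regulator Hnrnph1 at 4.95%, 5.56% and 4.64%. Within 0.1 point of 10%, 8 lay below and 6 above; Maz, a zinc finger factor, was just outside at position 356 with 11.1%, 10.7% and 8.40%, as was the Pol I factor Rrn3 at position 2533 with 5.88%, 12.8% and 11.3%.

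Most of the most deeply read members gave close values in every library, and most lay in mRNAs of the ribosome, which are themselves read deeply. Deep cytosines of ribosomal protein genes had a median mean coverage of 909.7 reads, against 106 for all deep cytosines. At a mean coverage of 200 reads or more, 0.347% of them were members, against 0.345% of all. Position 632 of Rps3 (NM_012052.2), a small-subunit protein with a further role in DNA repair, was unconverted in 727 of 9293, 692 of 9044 and 726 of 9021 reads, which is 7.82%, 7.65% and 8.05% (7.84% ± 0.199, SD, n = 3). Each library lay well inside the range and far above its background. Position 517 of Rps10 (NM_025963.3) gave 6.26%, 5.89% and 5.69%, position 121 of Rpl23a (NM_207523.2) 6.73%, 6.81% and 6.05%, and position 365 of Rps19 (NM_023133.1) 6.07%, 5.76% and 5.76%. Lower were position 307 of Rplp0 (NM_007475.5), the stalk protein, at 5.25%, 5.30% and 5.48%, and position 140 of Rps20 (NM_026147.5) at 4.94%, 5.75% and 5.06%. Outside the ribosome itself was position 483 of Eef1b2 (NM_018796.3), the exchange factor of elongation factor 1, at 7.29%, 7.71% and 5.90%. Ribosomal protein genes have near-identical processed copies, so the origin of some of these reads is uncertain.

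The members whose lowest library was highest came from a more varied set of mRNAs. Position 279 of Rack1 (NM_008143.3), a scaffold on the small ribosomal subunit, was unconverted in 184 of 1956, 199 of 1865 and 190 of 1911 reads, or 9.41%, 10.7% and 9.94%. Its neighbour at position 277 was also a member, with 4.995%, 5.92% and 5.51%, and was lower in every library. Position 726 of Cfl1 (NM_007687.5), which severs actin filaments, gave 9.73%, 9.61% and 9.38% of 709, 853 and 906 reads. The other 8 had 54 to 195 reads a library: Naa50, Marcksl1, Bri3, Nedd4, Ube2s, Arih2, Isyna1 and Prmt3, among them the ubiquitin ligases Nedd4 (9.17%, 8.77% and 9.70%) and Arih2 (10.3%, 10.7% and 8.62%). Their lowest library was between 8.51% and 9.33%.

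**Figure D1:**
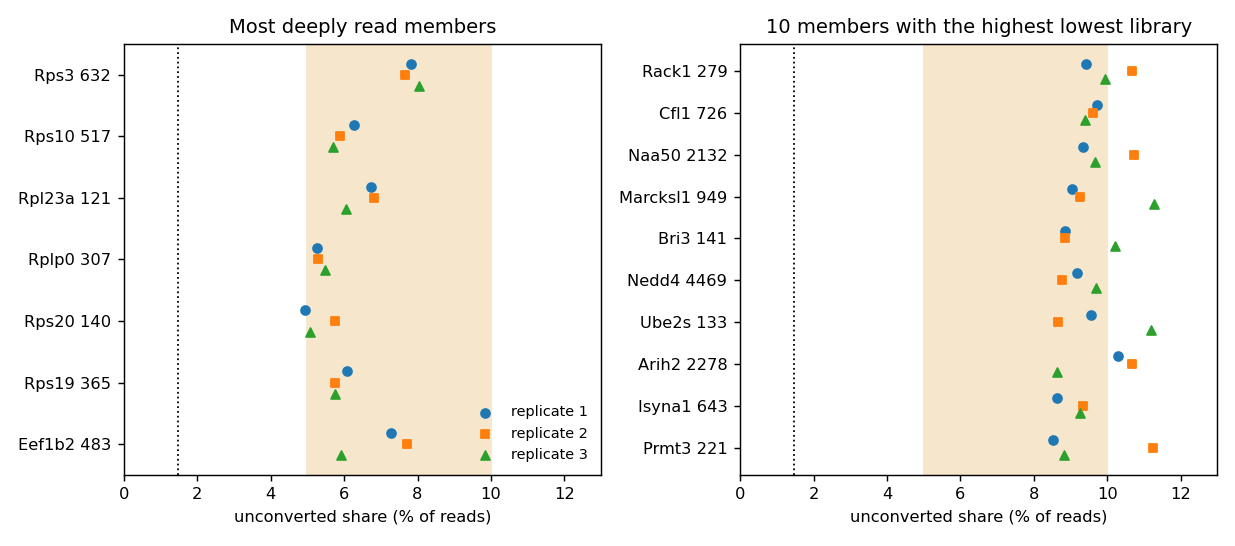
Unconverted share (percent of reads, horizontal) in replicates 1 to 3 of 7 of the most deeply read members (left) and of the 10 whose lowest library is highest (right), each named by gene and transcript position; the shaded band is the range of 5% to 10% and the dotted line the mean library background of 1.46%. The 3 points of most of the deepest members lie close together, as for Rps3 between 7.65% and 8.05%, while those of Eef1b2 range from 5.90% to 7.71%.

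Away from such depths, single libraries scattered widely around the pooled value. The median SD between the 3 libraries was 2.02 percentage points over all members. Only 509 members lay within the range in all 3 libraries, 1576 did so in 2, 737 in 1 and 116 in none. In all, 650 members were at 5% or above in each library, and 13, 18 and 18 had no unconverted read in replicates 1, 2 and 3. A count of 0 in 50 reads allows a share of up to 6%, a limit that covers counting error only and includes the lower part of the range.

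The 5 members with the smallest p for a difference between libraries were uneven in different ways. At position 985 of Rad21, a cohesin subunit, the libraries gave 0 of 83, 6 of 72 and 9 of 62 reads, and at position 547 of Eif6, which keeps ribosomal subunits apart, 9 of 69, 2 of 66 and 0 of 70. Position 240 of Larp1 had 10.6%, 3.23% and 0.980%, position 510 of the mitochondrial protein Chchd3 6.60%, 2.79% and 10.1%, and position 168 of the kinase Pim1 4.30%, 0% and 12.9%. Without replicate 1 the pooled share was 1.47% at Eif6, 2.21% at Larp1 and 11.2% at Rad21. Without replicate 3 it was 2.58% at Pim1, 8.15% at Eif6 and 3.87% at Rad21. No member was called different between libraries in a conditional test of equal shares, exact where an expected count was below 5 and chi-square otherwise (Benjamini-Hochberg over all deep cytosines, adjusted p below 0.05). The same test called 0% of all 441931 deep cytosines. Even the uneven reads of Rad21 were not called, so at such depths the absence of calls does not show equal shares. At an unadjusted p below 0.05 the test found 139 members (4.73%) and 14436 of all deep cytosines (3.27%), and chi-square everywhere also called 0, with 129 members unadjusted. The exact form was used at 56.9% of members and 85.3% of all deep cytosines, so the 2 unadjusted shares are not strictly alike. The libraries were not copies of one another. A chi-square comparison of coverage along a transcript gave an unadjusted p below 0.05 at 18.4% to 32.5% of transcripts, depending on the pair. A read can cover several cytosines, so these p-values are given as a description only.

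Whether the level holds in reads that had no part in the choice was asked by choosing on 2 libraries and reading the 1 left out. In the library left out, the chosen cytosines were clearly above the background but mostly below the range. Choosing on the other 2 gave 4006, 4069 and 4233 cytosines for replicates 1, 2 and 3, with a median of 5.73% on the libraries used. In the library left out the median was 3.71%, 3.70% and 3.60% (3.67% ± 0.0628, SD, n = 3), and the share over all their reads 4.64% ± 0.0788. Of the chosen cytosines, 83.1% ± 1.10 were above the library background and 31.4% ± 1.19 at 5% or above, whereas for those chosen below 5% the values were 42.7% ± 0.617 and 1.93% ± 0.0661. Cytosines chosen below 5% had a left-out median of 1.28% ± 0.0505, and the 133 to 147 chosen at 10% or above one of 10.6% ± 0.356.

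Single cytosines passed a test in the left-out library more often than deep cytosines at large, yet most did not pass. A one-sided exact binomial test against the library background (Benjamini-Hochberg over all deep cytosines, adjusted p below 0.05) called 541, 620 and 600 of the chosen cytosines, 14.3% on average. It called 0.609%, 0.685% and 0.627% of all deep cytosines in replicates 1, 2 and 3. With a beta-binomial test, which allows cytosines to vary in background, the calls were 154, 141 and 157, or 3.67% on average, beside 0.0613%, 0.0577% and 0.0631% of all deep cytosines. Against the unconverted share of the same transcript, the binomial test called 517, 587 and 574 of them, beside 0.59%, 0.665% and 0.613% of all deep cytosines.

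The level in the left-out library was higher at greater coverage. Among chosen cytosines with a mean coverage of 50 to below 100 reads the left-out median was 3.17%, at 100 to below 200 it was 4.25%, and at 200 to below 500 it was 5.18% ± 0.158. At 500 to below 1000 reads it was 5.73% ± 0.0863 and at 1000 or more 5.73% ± 0.199, both inside the range. The share called rose over the same classes from 4.68% through 19.3%, 61.9% and 95.7% to 100%, while that of all deep cytosines went from 0.188% through 0.400%, 0.981% and 2.27% to 6.43%. A test on more reads also calls smaller excesses. Most members lay in the shallow classes: 1827 in the first, 763 in the second, 268 in the middle one, 47 in the next and 33 in the deepest. Members were 0.893% of the deep cytosines in the shallowest class and 0.263% in the deepest. With the coverage minimum set on 2 libraries alone, the range held 4200 cytosines without replicate 1, 4427 without replicate 2 and 4808 without replicate 3.

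**Figure D2:**
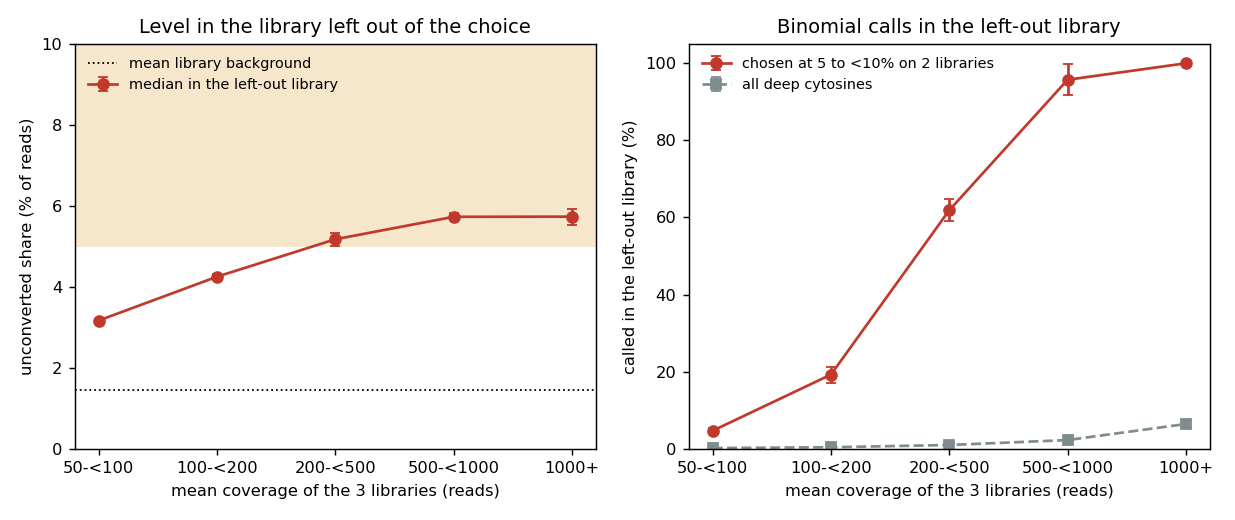
Cytosines chosen at 5% to below 10% on 2 libraries, read in the library left out, by mean coverage (horizontal, reads); points are means over the 3 choices of that library and bars are SD. Left, median unconverted share (percent of reads) with the mean library background dotted: it climbs from 3.17% to 5.73%. Right, share called by the binomial test (percent), from 4.68% to 100%, with all deep cytosines in grey.

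The position of other cytosines around members was not used by the choice, and it differed on the 5′ side. A listed cytosine stood directly 5′ of 15.2% of members, against 25.6% of deep cytosines below the range. At 2 nt upstream the values were 16.8% and 22.7%, and at 3 nt upstream 15.2% and 27.2%. A gap was also seen at 6 nt upstream, at 21.6% and 27.6%. On the 3′ side the values were 25.8% and 25.7% for the next base, and the largest gap was at 3 nt, at 24.1% and 27.2%. As a result 1788 members (60.9%) had no listed cytosine in the 3 bases before them, called a free 5′ flank, against 41.4% of those under the range. Within the transcripts that hold members the comparison value was 40.8%. Of cytosine letters in the 5′ windows with sequence, 80.6% were listed, so a flank free of listed cytosines can hold an unlisted one.

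The free 5′ flank was about as common in deeper members and at either end of the range. Members with a mean coverage of 200 reads or more had a free 5′ flank in 62.4% of cases, against 42.0% of equally deep cytosines below the range. Members at 5% to below 6% had one in 61.7% and those at 6% to below 10% in 59.4%. In ribosomal protein mRNAs it was 40 of 54 members, against 39.4% below the range. For the 116 cytosines at 10% or above it was 37.9%. Seen from the context, 0.975% of deep cytosines with a free flank were members, and 0.445% of those with a cytosine in it.

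The flank also went with the level of cytosines below the range. Deep cytosines below 5% were unconverted in 1.54% ± 0.0640 of reads with a free 5′ flank and in 1.36% ± 0.0636 with a cytosine there (SD, n = 3), a difference of 0.181 ± 0.00209 percentage points. It was positive in 3 of 3 libraries (exact sign-flip permutation test, two-sided, p = 0.25, the smallest that 3 libraries allow). Among cytosines chosen on 2 libraries, the left-out median was 3.76% ± 0.108 with a free flank and 3.54% ± 0.0315 without, and 14.0% and 14.8% of them were called. Of all deep cytosines with the same flank, 0.909% ± 0.0747 and 0.450% ± 0.0155 were called. Where cytosines adjoin in a run, 0.679% of first cytosines were members, 0.629% of inner ones and 0.325% of last ones, beside 0.785% of cytosines with no cytosine on either side. Runs of 4 or more differed from shorter ones: 0.799% of all their cytosines and 1.21% of their first cytosines were members.

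**Figure D3:**
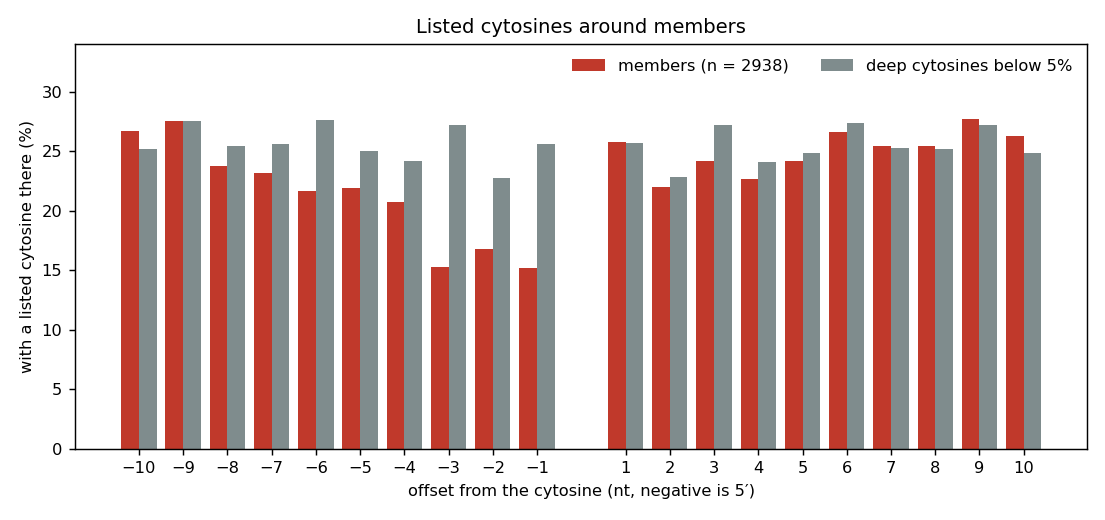
Share of members (red) and of deep cytosines below 5% (grey) that have a listed cytosine at each offset from 10 nt upstream to 10 nt downstream (horizontal, nt; vertical, percent). The red bars drop at the 3 offsets just upstream, to 15.2%, 16.8% and 15.2%, while downstream the largest gap, at 3 nt, is between 24.1% and 27.2%.

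Neighbours of members were less converted than neighbours of other cytosines of the same mRNA, most of all in the nearest few bases. With members themselves left out, cytosines 1 to 3 nt from a member had a mean unconverted share of 1.98% ± 0.114. Those 1 to 3 nt from a deep cytosine below the range had 1.43% ± 0.0602, a difference of 0.550 ± 0.0539 points. These shares were averaged within each transcript and then over transcripts. At 1 to 10 nt the values were 1.77% ± 0.0537 and 1.46% ± 0.0628, and the difference was 0.313 ± 0.00919 points, higher in 3 of 3 libraries (exact sign-flip permutation test, two-sided, p = 0.25, the smallest possible). Against deep cytosines below the range in any transcript it was 0.473 points, and over 1 to 50 nt together it was 0.0840 points within transcripts. At 11 to 50 nt alone it was down to 0.0288 ± 0.0123 points, and at 51 to 100 nt members and comparison differed by less than the spread, at -0.00423 ± 0.0144 points. Offset by offset, with every member weighted equally and not every transcript, a gap was still seen well beyond 10 nt. It was 1.88% ± 0.136 against 1.51% ± 0.0618 at 11 nt downstream, and 1.85% ± 0.0580 against 1.57% ± 0.0597 at 22 nt downstream. At 22 nt upstream the values were 1.63% ± 0.0117 and 1.42% ± 0.0667, but at 33 nt upstream 1.41% ± 0.0986 and 1.42% ± 0.0642. The weightings thus differ on how far the gap reaches. Neighbours lie on the same reads as the member, so their unconverted counts are not independent of the counts that chose it.

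**Figure D4:**
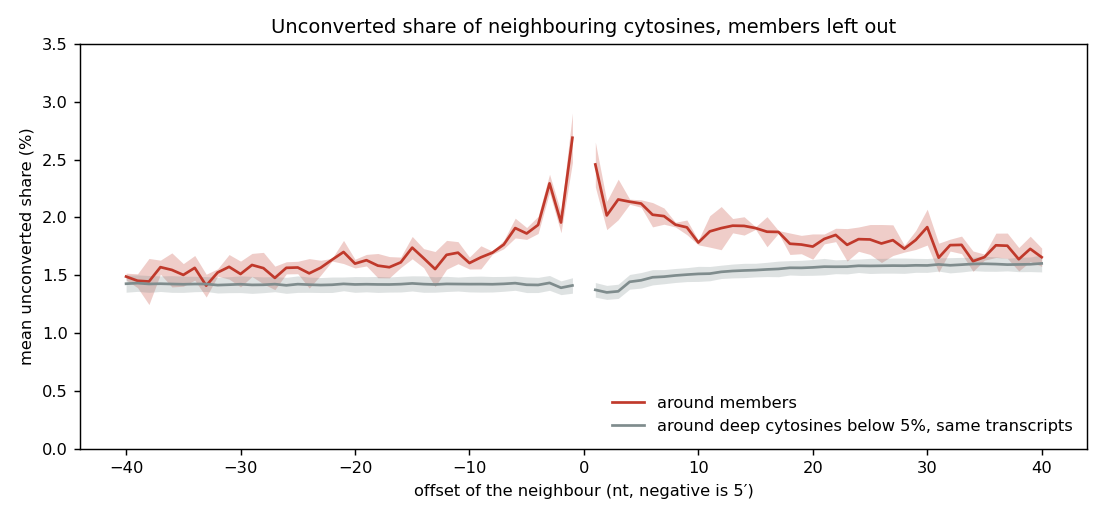
Mean unconverted share (vertical, percent of reads) of listed neighbours by offset from members (red) and from deep cytosines below 5% of the same transcripts (grey), with members left out as neighbours; lines are means of 3 libraries and bands are SD. The red line stands highest beside the member, at 2.69% directly upstream and 2.46% directly downstream, where the grey line is at 1.41% and 1.37%.

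A minority of members lay in close groups. Another member stood within 10 nt of 396 members (13.5%), against 2.13% of deep cytosines below the range. Within 1 nt the values were 5.41% and 0.203%, and within 50 nt 21.2% and 8.64%. The 396 formed 158 groups, of which 109 were pairs, and the other 2542 members stood alone.

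Alone and grouped members differed in place and surroundings. Lone members had 4.31 listed cytosines within 10 nt and a free 5′ flank in 64.6% of cases, and 33.1% of them lay in the first 500 nt, near the 31.6% of deep cytosines below the range. Grouped members had 6.70 cytosines within 10 nt and a free flank in 36.9% of cases, below the 41.4% of the comparison, and 64.4% of them lay in the first 500 nt. The flank of a grouped member can hold another member of its group, and for the 5′-most member of each group the free flank was seen in 53.8%. Cytosines below the range had 5.11 cytosines within 10 nt. The neighbour difference at 1 to 10 nt was 0.294 ± 0.00936 points around lone members and 0.946 ± 0.0469 points around grouped ones. At 11 to 50 nt it was 0.0199 ± 0.0106 and 0.260 ± 0.0401 points.

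The 3 longest groups held 6 members each. In Fkbp4 (NM_010219.3), a chaperone partner of steroid receptors, 6 of the 8 deep cytosines from position 159 to 173 were members, with pooled shares of 5.50% to 7.79%. The highest of them, position 170, gave 7.56%, 7.69% and 8.22%. In Hnrnpa0 (NM_029872.1) 6 of 7 deep cytosines from 1211 to 1219 were members, at 5.48% to 8.92%, and replicate 2 was the highest library at each of them. In Mlec (NM_175403.3), a sugar-binding protein of the endoplasmic reticulum, they were 6 of 8 from 3725 to 3746, at 5.14% to 7.97%, and replicate 1 reached 12 of 92 reads at position 3731 where the others gave 4 of 94 and 6 of 90. At the first and last of the Mlec positions replicates 2 and 3 were the highest instead, and cytosines this close can share reads.

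Members were spread over many mRNAs. Of the 1623 genes, 1002 held 1 member, 534 held 2 to 4 and 87 held 5 or more, and those 87 held 600 members (20.4%). Genes with members had a median of 115 deep cytosines, and genes without had 25.5. In genes with at least 50 deep cytosines, the share of reads unconverted at deep cytosines below 5% was 1.41% ± 0.0610 with no member and 1.51% ± 0.0615 with 5 or more. The same reads decide how many members a gene has, so this is a description with no test.

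Hnrnpa0, a protein that binds AU-rich elements of mRNAs, held the most, with 22 of its 397 deep cytosines between positions 99 and 1267. Its most deeply read members adjoin at positions 698 and 699, with 7.65%, 5.27% and 6.74%, and 6.38%, 6.42% and 6.19%. Position 707 reached 10.6%, 8.06% and 8.13% of 578, 608 and 627 reads, whereas position 1267 had 3.80%, 0% and 14.0% of 79, 56 and 50 reads, and 2.22% over replicates 1 and 2 without replicate 3. In this mRNA 19 of the 22 members had a cytosine in the 3 bases before them, the reverse of the class as a whole. Other genes with many members differed in this. A free 5′ flank was as rare in Exosc6 (1 of 11), Ppp1r14b (2 of 11), Trim71 (3 of 15) and Trim28 (2 of 9). It was seen at 6 of 13 in Larp1, 9 of 17 in Rcc2, 6 of 11 in Mlec, 6 of 9 in Agrn and 7 of 10 in Rps2 and Khsrp. The other cytosines of these mRNAs were not compared here.

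Other genes with many members included regulators of RNA and chromatin. Rcc2, which acts on small GTPases in mitosis, held 17 of 729 deep cytosines, and Trim71, a stem cell ubiquitin ligase and RNA repressor, 15 of 647. Larp1, which binds mRNAs with a 5′ terminal oligopyrimidine tract, held 13 of 441. Exosc6, a subunit of the RNA exosome, held 11 of 194, Ppp1r14b, a phosphatase inhibitor, 11 of 189, and Mlec 11 of 281. The RNA-binding protein Khsrp held 10 of 372, the corepressor Trim28 9 of 867 (1.04%) and the proteoglycan Agrn 9 of 1321. For Agrn this is 0.681%, near the 0.665% of all deep cytosines.

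Exosc6 and Rps2 show how tightly such members can lie. In Exosc6 (NM_028274.4) 6 of the 11 were at positions 507 to 530, and the highest, position 512, gave 9.31%, 8.41% and 10.2%. In Rps2 (NM_008503.5), which held 10 of 216, 9 lay between positions 121 and 215. Position 202 of Rps2 gave 8.20%, 7.85% and 7.57% and position 190 gave 8.44%, 7.64% and 6.17%, whereas position 196 between them ran the other way, at 5.83%, 6.51% and 7.41%. Near-identical copies of Rps2 leave the origin of its reads uncertain. Members made up the largest part of the deep cytosines in Taf4b (5 of 52), Get4 (7 of 73) and Taf10 (6 of 92), among genes with at least 50.

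**Figure D5:**
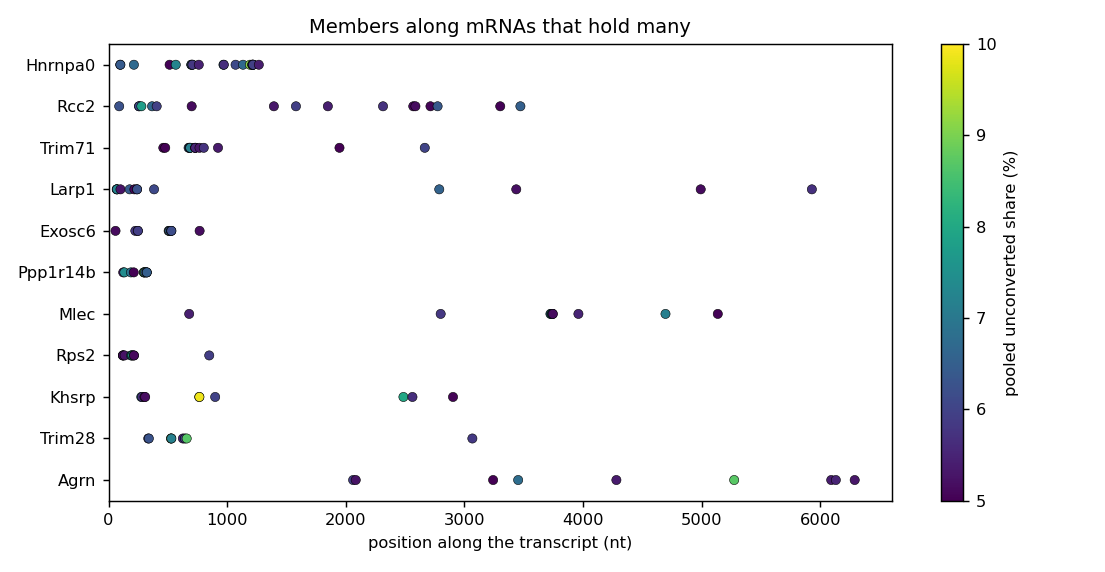
Members along 11 mRNAs that hold many, by position from the transcript start (horizontal, nt); each point is a member and its colour the pooled unconverted share (percent). The axis is not scaled to transcript length. Points lie at 59 to 768 in Exosc6, 124 to 323 in Ppp1r14b and 121 to 849 in Rps2, and at 2062 to 6290 in Agrn.

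Along the transcript members were somewhat more frequent early on, but not at the very start. They were 0.565% of deep cytosines at positions 1 to 50 (34 of 6015), 0.833% from there to 200, 0.766% on to 500 and 0.650% on to 1000. Farther along they stayed between 0.574% and 0.610%. Within 50 nt of the last listed cytosine of a transcript they were 1.74% (49 of 2821), against 0.646% at 51 to 100 nt from it. Coverage fell away from members no more steeply than elsewhere: at 50 to 100 nt it was 0.557 ± 0.0115 of that at the member, against 0.492 ± 0.00481 around deep cytosines below the range. The count in the first 50 nt was 60 without replicate 3.

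By function, members were near the rate of all deep cytosines (0.665%) in most gene lists, which differ in depth. In cytosolic ribosomal protein genes they were 54 of 10623 (0.508%), and at a mean coverage of 200 reads or more 32 of 9219 (0.347%), beside 348 of 100934 deep cytosines of that depth (0.345%). At that depth the lists ran from 0.198% in glycolysis (2 of 1012) to 0.787% in the 5-methylcytosine list (3 of 381). The cytoskeletal list was then at 0.686% (14 of 2042). The splicing and hnRNP list was at 0.551% (15 of 2721) and the chromatin list at 0.429% (6 of 1400). Deep cytosines of ribosomal protein genes had a median mean coverage of 909.7 reads, against 106 for all deep cytosines. Rpl9, of the large subunit, held 3, the highest-covered at position 126 with 6.57%, 5.71% and 5.02%.

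Translation factors held 53 of 8315 (0.637%) and aminoacyl-tRNA synthetases 25 of 3647 (0.685%). Eif4h, a cofactor of the eIF4A helicase, held 5, including position 1415 at 8.42%, 8.04% and 9.36%. Eif3a held 5 of 629 (0.795%) and Eef2 4 of 851 (0.470%). Among the synthetases Aars, for alanine, held 5, with position 3236 at 7.66%, 8.94% and 5.51%.

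The splicing and hnRNP list held 73 of 6384 (1.14%), of which 22 were those of Hnrnpa0. Hnrnpul2 held 7 and Hnrnpu 6, and position 429 of Hnrnpu gave 8.53%, 7.11% and 4.62%. The chromatin list held 37 of 3289 (1.12%): Trim28 had 9, the remodeller Chd4 6, and the Polycomb subunit Eed 6 of its 140, all at positions 245 to 396. Position 3067 of Trim28 was even, at 5.68%, 6.27% and 5.60%. In these lists the deep cytosines below the range were unconverted in 1.51% ± 0.0669 and 1.55% ± 0.0707 of reads. Over all deep cytosines below the range and the reads of all 3 libraries it was 1.43%.

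The writers and readers of 5-methylcytosine held 12 of 1122 (1.07%), of which 7 were in Alyref, the export adaptor that binds 5-methylcytosine. Position 478 of Alyref gave 4.95%, 7.55% and 6.27% and position 203 gave 7.75%, 6.38% and 4.27%. Ybx1 held 2, and Nsun2, the methyltransferase itself, 1, at position 902 with 6.82%, 7.02% and 5.56%. With 5 genes in this list its rate rests on Alyref.

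Of pluripotency genes, 22 of 3634 deep cytosines were members (0.605%). L1td1, an RNA-binding protein of pluripotent cells, had a steady one at position 285, with 8.42%, 9.01% and 9.08%. Sox2 held 4, including position 597 at 4.91%, 5.95% and 6.22%, and Klf4 3, including position 2810 at 5.31%, 8.28% and 10.3%. All 9 stem cell markers looked for were listed and took 0.568% ± 0.00576 of coverage, against 0.0393% ± 0.00912 for the fibroblast markers, of which Dcn, Lum, Pdgfrb and Postn were not listed. No member lay in a fibroblast marker, but only 4 of the 11 had a deep cytosine, and of the 9 markers of early differentiation 2 had one and Nes held 1 member.

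The chaperone list held 53 of 9103 (0.582%), among them position 906 of the chaperonin subunit Cct3, with 7.42%, 7.19% and 9.17%. It was drawn by gene symbol and includes 7 of 1449 in Hspg2, a proteoglycan and not a chaperone. Nuclear-encoded respiration genes held 50 of 7360 (0.679%), among them 5 in a stretch of Ndufa13 from position 807 to 820, and the proteasome and ubiquitin list held 58 of 7154 (0.811%). Ube2s, the conjugating enzyme of the anaphase-promoting complex, held 4, at position 133 with 9.56%, 8.66% and 11.2% and at position 648 with 6.93%, 7.64% and 7.01%. Cytoskeletal genes held 24 of 3451 (0.695%), with position 1475 of Actg1 at 6.05%, 5.76% and 5.99%. Amino acid and nucleotide metabolism held 21 of 2841 (0.739%), of which Odc1, the first enzyme of polyamine synthesis, had 8. Glycolysis held 12 of 2537 (0.473%) and replication and the cell cycle 28 of 6206 (0.451%), the lowest rate of the 14 lists. The replication list was also drawn by symbol and includes 3 of 217 in Mcm3ap, which is not an MCM helicase subunit.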

How the data were processed

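Bisulfite-converted mRNA of 3 libraries was analysed. BSMAP and build mm9 are named in the submitters' processing notes; no version or counting step was found in the sources. The deposited tables give, per cytosine of a RefSeq mRNA, its transcript position, its coverage (a raw count of reads) and its unconverted share (a fraction of those reads). The lowest coverage the authors listed is 3. Share times coverage was whole within 1e-06 and was taken as unconverted reads. Reads carry no molecular identifiers, so intervals and limits cover counting error only. Of 15021 transcripts, 14932 were matched to a gene by accession, using the GRCm38.p6 RefSeq table for names. Positions count from 1 at the RefSeq start: listed cytosines fell on cytosine letters at 2534 of 3614 transcripts with at least 8 listed cytosines in the first 50 nt, and only these were given letters and coordinates. Place in exon, coding sequence or untranslated region is not used here.

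Members pass a coverage minimum of 50 in each library and a pooled share of 5% to below 10%. They, the lists and the tests were chosen with earlier results of these data known. Because the measured share chose them, it is described without a test. Compared were the library left out of the choice, positions, neighbours, and the levels of cytosines below 5% by 5′ flank; genes by number of members were only described. Binomial tests used all deep cytosines against the library-wide share, with Benjamini-Hochberg adjustment at 0.05. Neighbour comparisons were paired within transcripts and tested by exact sign flips over the 3 libraries. Named were the 12 genes with the most members, the 5 genes with the largest share of members, the 8 deepest members, the 10 with the highest lowest library, the 5 with the smallest p between libraries, the 3 longest groups, 2 cytosines on each side of each threshold, up to 3 genes a list and 6 members with letters; any other name was picked with its values in view. A few items under this rule are not reported here. Alternatives were coverage minimums of 100 and 30, the unweighted mean share, each library left out, single-transcript genes, other backgrounds, tests and neighbour distances. Tests were checked on simulated data. Python 3.11.15, numpy 2.4.6, pandas 2.3.3, scipy 1.17.1, numba 0.67.0 and matplotlib 3.10.9 were used.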

Additional observations from a re-analysis of the deposited data

How the results depend on the processing

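Of 78 alternative values of the comparisons, 25 were labelled as moved. Counts were judged by a factor of 1.5, and shares of members and listed cytosines within 10 nt by a 95% interval over members. The left-out values and the coverage ratio were judged by the spread between libraries. The neighbour difference was judged by its direction alone, the only measure so judged, and 0 of its 11 settings reversed. With a coverage minimum of 100 reads there were 911 members in 584 genes, a left-out median of 4.70%, calls at 42.2%, 16.4% with a member within 10 nt, a coverage ratio of 0.523 and 13 members in the first 50 nt. At 30 reads there were 7201 members in 3133 genes, with 2.73%, 5.44%, 15.0%, 0.644 and 102 for the same measures, 4.72 listed cytosines within 10 nt and 58.5% with a free 5′ flank. The cause was not tested. The beta-binomial test called 3.67% in the left-out library. With a distance of 3 nt, 7.93% of members had another one close by, and with 50 nt 21.2%. The neighbour difference was 0.550 points at 3 nt and 0.0840 at 50 nt, and 0.473 against cytosines of any transcript. Named cytosines with uneven libraries moved most when 1 was left out, such as position 547 of Eif6, from 5.37% to 1.47% without replicate 1.

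Without 1 library in turn, members ranged from 4200 to 4808, genes from 2138 to 2298, members in the first 50 nt from 43 to 60, the coverage ratio from 0.555 to 0.576, members with another within 10 nt from 13.2% to 14.0%, listed cytosines within 10 nt from 4.65 to 4.71 and a free flank from 58.7% to 59.8%. The neighbour difference at 1 to 10 nt then ranged from 0.263 to 0.282 points and was positive in all 11 settings run. In all 7 settings run, members had a free flank more often than the comparison. The flank measure and 1 neighbour setting (deep neighbours at 5% or above left out, 0.300 points) were chosen after seeing the data. No paired analysis was possible because there is 1 group, so no samples can be paired between groups; the sign-flip tests compare cytosines within each library. Most members have under 100 reads a library, and at 50 reads a count of 0 allows up to 6%.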
